A study of Mus musculus with 6 samples.

Results

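The insulin-like growth factor (IGF) system was examined in inguinal white adipose tissue (iWAT) of cold-acclimated mice through 10 genes, namely the ligands Igf1 and Igf2, the receptors Igf1r and Igf2r, and the binding proteins Igfbp2 to Igfbp7. They were selected by symbol from the 16538 genes of the analysed table, and all 10 were found. Igfbp3 was singled out because its level differed between the genotypes in these same samples, so the genotype values of the 10 genes are given as a description. Counts of members called are set beside the share called over all genes, and nothing is read from them. iWAT, a subcutaneous fat depot in which beige adipocytes form in the cold, was taken from control mice (wt in the labels, fl/fl littermates in the study's text) and from NRG4-AKO mice. In AKO mice the floxed Nrg4 gene is deleted by Adiponectin-Cre, which acts in adipocytes, so that other cells of the depot keep the gene. All mice, controls included, were kept at 8°C, for 10 days by the labels and for longer by the study's text, and their age was not given in the sources used here. Each group had 3 samples, and each sample was RNA pooled from 2 mice, so a sample does not show the spread between single animals.

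IGF1 and IGF2 are secreted growth factors that signal through the tyrosine kinase receptor IGF1R. IGF2R carries no kinase and takes IGF2 to lysosomes, together with proteins marked by mannose 6-phosphate. The binding proteins hold IGFs outside the cell. They prolong their half-life or keep them from the receptor, until proteases such as PAPP-A cut them and set the ligand free. In blood, most IGF travels in a complex with IGFBP3 or IGFBP5 and the acid-labile subunit, the product of Igfals. In fat, IGF1 is made both by adipocytes and by stromal cells and promotes the growth and differentiation of preadipocytes.

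Read depth was similar, from 17570335 to 18128524 reads on the listed genes in control and from 17995218 to 18373707 in AKO. Nrg4 itself, the targeted gene, had 3128, 3102 and 3092 normalized counts in control and 2577, 2627 and 2691 in AKO, 15.3% lower without overlap (limma adjusted p = 0.298). Its counts cover the whole gene and do not single out the deleted part. By qPCR, the study reported that AKO mice had almost no Nrg4 mRNA in iWAT and brown fat. Skeletal muscle markers varied widely between libraries, with a sum over the 8 genes of 123 to 19861 normalized counts in control and 14643 to 86525 in AKO. The sums overlapped. Of the 8 genes, 7 had a positive log2 ratio of AKO over control, with a median of 3.93, and limma and DESeq2 called 0. A normalized count is a read count divided by a size factor of the sample. The 8 adipocyte markers (Cfd the most abundant) were high in all 6 samples, with sums from 346896 to 377194 in control and from 288240.5 to 353114 in AKO.

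Igfbp3 (ENSMUSG00000020427.11) spans bases 7206086 to 7213923 of chromosome 11 (GRCm38) and is read from the minus strand. It faces Igfbp1 tail to tail, with 3539 bases between the annotated ends, and Igfbp1 was not analysed here. Igfbp4 spans 99041244 to 99054392 on the plus strand of the same chromosome. Igfbp2 and Igfbp5 form a second such pair on chromosome 1, with 5457 bases between their ends. There Igfbp2 spans 72824503 to 72852474 and Igfbp5 72857932 to 72874884. Igf1 spans 87858265 to 87937042 of chromosome 10, and Igf2 142650766 to 142666816 of chromosome 7, which also holds Igf1r at 67952827 to 68233668. Igf2r lies at 12682406 to 12769664 of chromosome 17, Igfbp6 at 102144362 to 102149511 of chromosome 15 and Igfbp7 at 77349240 to 77408041 of chromosome 5. The windows from 250 bases before to 50 bases after the RefSeq start, which can differ from the start of the GENCODE gene, are shown for Igfbp3, the gene set apart by its level, for Igfbp4, an abundant binding protein on the same chromosome, and for Cish, the gene of the IGF and growth hormone lists with the largest difference. The sequences are from RefSeq (GRCm38.p6), read along the strand of the gene, and capitals mark matches, on either strand, to the 5 short patterns named after them.
Igfbp3, chr11:7213874-7214173, minus strand: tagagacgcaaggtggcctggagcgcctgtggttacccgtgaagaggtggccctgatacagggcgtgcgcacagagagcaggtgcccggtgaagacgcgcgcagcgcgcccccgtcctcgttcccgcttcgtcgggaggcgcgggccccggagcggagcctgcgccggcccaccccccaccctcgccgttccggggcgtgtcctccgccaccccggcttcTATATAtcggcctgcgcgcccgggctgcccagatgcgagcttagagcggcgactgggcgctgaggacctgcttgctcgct
Igfbp4, chr11:99040994-99041293, plus strand: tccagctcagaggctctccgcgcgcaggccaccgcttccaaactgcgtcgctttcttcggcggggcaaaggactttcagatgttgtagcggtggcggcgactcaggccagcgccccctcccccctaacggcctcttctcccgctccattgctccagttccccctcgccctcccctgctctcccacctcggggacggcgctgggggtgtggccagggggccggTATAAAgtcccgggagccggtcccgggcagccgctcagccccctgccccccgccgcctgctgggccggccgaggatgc
Cish, chr9:107296409-107296708, plus strand: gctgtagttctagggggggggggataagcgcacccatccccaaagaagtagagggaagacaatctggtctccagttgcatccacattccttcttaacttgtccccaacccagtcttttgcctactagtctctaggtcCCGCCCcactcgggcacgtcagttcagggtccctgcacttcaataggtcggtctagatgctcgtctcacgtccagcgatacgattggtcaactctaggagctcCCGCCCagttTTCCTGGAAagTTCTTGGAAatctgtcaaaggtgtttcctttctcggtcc

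The Igfbp3 window holds TATATA, starting 30 bases before the start, and none of the other 4 patterns. TATATA was found in 5.67% of 32851 promoter windows of the same length. The Igfbp4 window holds TATAAA, 28 bases before the start, a pattern found in 13.6% of the windows. The Igfbp6 window holds it too. The patterns TATATA and that of Igfbp4 can share bases where they meet. Windows were listed for all 10 members, 14 in all, and the patterns were chosen with these results in view. TTCNNNGAA, the consensus of STAT factors such as STAT5, was found in none of the 14 and in 8.30% of all windows. The cAMP response element, TGACGTCA, was likewise absent from the 14 and was found in 1.79% of all windows. The Cish window holds TTCNNNGAA at 2 places that begin at bases 1 and 12 counted from the start, and 0.457% of all windows hold it at least 2 times. GGGCGG, the core of GC boxes, was found in 35.7% of all windows and in that of Cish. Among the members, windows of Igf2, Igf1r, Igf2r, Igfbp2 and Igfbp7 hold it too. The Igfbp3 window is rich in CpG, with 37 CpG dinucleotides against a median of 7 over all windows, and has a GC content of 71.7% against a median of 52.7%. A match is a pattern of letters, and binding was not measured.

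Levels between genes were compared as normalized counts per kilobase of annotated exon. Among the members, the most abundant transcripts were those of binding proteins, although Igfbp3 and Igfbp2 ranked below Igf1. Igfbp7 led with 5162 ± 363 per kb (SD, n = 6, both groups), followed by Igfbp4 at 3145 ± 328, Igfbp5 at 2711 ± 491 and Igfbp6 at 1714 ± 358. Igfbp7 differs from the others in binding IGFs weakly, and it is known as a product of blood vessels. Igf1 was next with 444 ± 66.2 per kb and was followed by Igfbp3 with 274 ± 65.2. Igf2r had 165 ± 11.3, Igf2 59.6 ± 8.19 and Igf1r 31.9 ± 3.07 per kb. Igfbp2 was at 2.14 ± 1.15 per kb, and it had between 1 and 7 reads in a sample. Each gene stood above the next in all 6 samples, which makes the order the same in every library, although across libraries the range of Igfbp5 overlapped with those of Igfbp4 and Igfbp6. The order did not change when the longest annotated transcript gave the length. Of the exonic bases of Igf2, 64.5% are shared with Gm49394 on the same strand or with the antisense gene Igf2os, so the level of Igf2 is uncertain. Igf2os itself had 1 to 4 reads in a sample, and Gm49394 was not analysed here. Igfbp7 shares 7.03% of its exonic bases with Polr2b on the opposite strand.

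**Figure D1:**
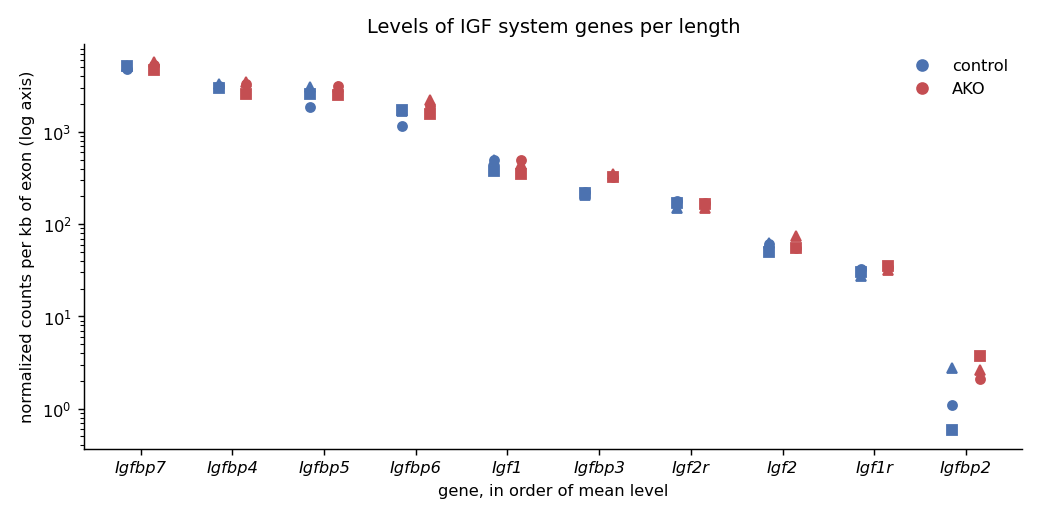
Normalized counts per kilobase of exon, on a log axis, for the 10 IGF system genes in order of mean level, with control samples in blue, AKO samples in red, and the circle, square and triangle for replicates 1, 2 and 3. The means run from 5162 per kb for Igfbp7 to 2.14 per kb for Igfbp2.

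The ligand transcripts did not separate the genotypes. Igf1 had 4953, 3726 and 4909.9 normalized counts in control and 4911, 3469.8 and 4406 in AKO. Replicate 2 was the lowest of both groups, and the spread within each group was larger than the difference between the means, 4529.8 ± 696 in control and 4262 ± 731 in AKO (SD, n = 3 each). Igf2, the fetal growth factor expressed from the paternal allele in most tissues, had 347, 287 and 359.9 in control and 316, 316 and 421 in AKO. The groups overlapped. The log2 ratio of AKO over control, fitted on log2(normalized count + 1), was -0.09 for Igf1 (standard error, SE, 0.15) and 0.08 for Igf2 (SE 0.14). Igf1 made up 85.8% to 90.0% of the ligand transcripts per kb in the 6 samples.

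The receptors were at similar levels in both groups when taken alone. Igf1r had 549.9, 503 and 455 normalized counts in control and 579, 597 and 534 in AKO, so that control replicate 1 lay above AKO replicate 3. Its log2 ratio was 0.18 (SE 0.09), and 0.11 without control replicate 3. Igf2r had 1663, 1594 and 1409 in control and 1577, 1548 and 1401 in AKO, with a log2 ratio of -0.04 (SE 0.08). Both receptors were lowest in replicate 3 of their group. The ratio of Igf1r to Igf2r per kb was 0.183, 0.175 and 0.179 in control and 0.204, 0.214 and 0.211 in AKO, without overlap. This ratio was formed after the values were seen and was not tested. Of single genes tested, 14.5% had no overlap, and the share of gene ratios without overlap was not counted.

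Among the 9 members that passed the filter on low counts, Igfbp3 had the largest log2 ratio. Control replicates 1 to 3 had 698, 679 and 648 normalized counts, and AKO replicates 1 to 3 had 1019, 1012 and 1096. All AKO samples lay above all control samples, with a gap of 314 between the highest control and the lowest AKO sample. The means were 675 ± 25.7 in control and 1042 ± 46.6 in AKO (SD, n = 3 each), 54.5% higher in AKO (log2 ratio 0.63, SE 0.07). The coefficient of variation was 3.80% in control and 4.47% in AKO, where the counting error of the reads is 3.91% in control and 3.05% in AKO. Over all genes tested, 439 of 13855 had a larger log2 ratio, and among the 3514 genes with a mean at least as high as that of Igfbp3, 26 did.

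The abundant binding proteins had wider spreads and overlapping groups. Igfbp4, which mainly withholds IGF from the receptor, had 13743, 13084 and 14779.6 normalized counts in control and 14779, 11482 and 15454 in AKO. The means of 13869 ± 855 and 13905 ± 2125 (SD, n = 3 each) differed by less than 1 SD of either group. Igfbp7 had 5797, 6312 and 6340.2 in control and 6452, 5677 and 6865 in AKO. The log2 ratios were -0.01 for Igfbp4 (SE 0.12) and 0.04 for Igfbp7 (SE 0.08).

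Igfbp5, which binds to extracellular matrix, had 11263, 15466 and 18337 normalized counts in control and 19006, 15165 and 18471 in AKO. Control replicate 1 was low, and the remaining control samples lay within the AKO range. Igfbp6, which prefers IGF2 over IGF1, had 1301, 1926 and 1875 in control and 2105, 1728 and 2499.9 in AKO, again with control replicate 1 lowest. The log2 ratios were 0.25 for Igfbp5 (SE 0.17) and 0.32 for Igfbp6 (SE 0.18). Without single samples, Igfbp5 ranged from 0.05 (without control replicate 1) to 0.40 (without control replicate 3). Igfbp6 was at 0.14 without control replicate 1, at 0.19 without AKO replicate 3 and at up to 0.45 (without AKO replicate 2). Igfbp2 had 2.01, 1.08 and 5.08 normalized counts in control and 3.84, 6.83 and 4.82 in AKO, too few for a comparison.

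**Figure D2:**
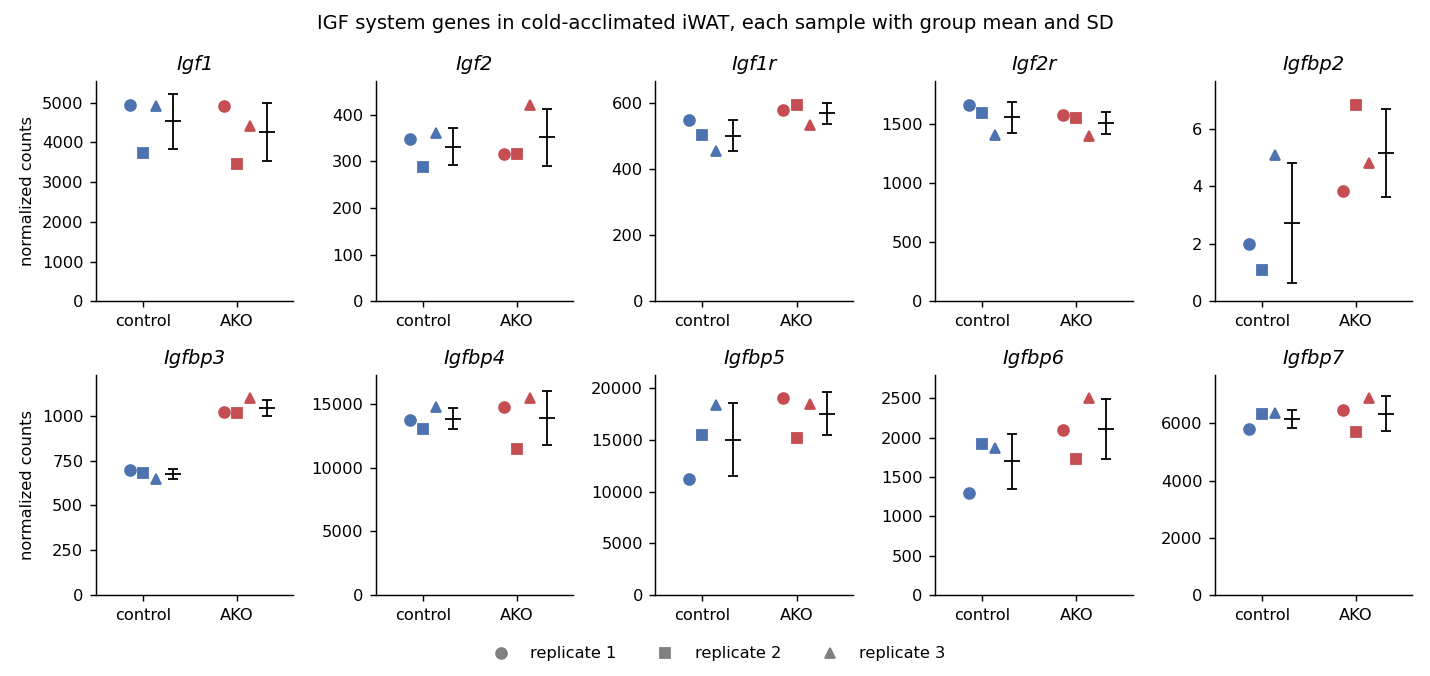
Normalized counts of each of the 10 IGF system genes in 3 control (blue) and 3 AKO (red) samples, with the group mean and SD (n = 3) in black and an axis that starts at 0. The groups separate for Igfbp3, with 648 to 698 in control and 1012 to 1096 in AKO, and overlap for the other 9 genes.

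The log2 ratios of the other 8 members tested lay between -0.09 and 0.32 with a median of 0.06, against a median of 0.01 over all 13855 genes. Igfbp2 did not pass the filter of a mean of at least 10 normalized counts. Among the 9 members tested, the groups did not overlap for 1, Igfbp3, where 14.5% of all genes tested had no overlap (6.14% higher and 8.31% lower in AKO). At a Benjamini-Hochberg adjusted p under 0.05 (the threshold used throughout), limma called 0 of the 9 members, with 0.0144% of all genes called. Before adjustment, 1 of the 9 had a p under 0.05, against 9.10% of all genes. The quasi-likelihood test of edgeR called 0 of the 9 (0.0144% of all genes), and DESeq2, the tool of the study, called 1, Igfbp3 (0.998% of all genes). The genotype contrast had singled out Igfbp3, so these counts describe the selection. Leaving out any single sample kept the log2 ratio of Igfbp3 between 0.59 and 0.65.

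**Figure D3:**
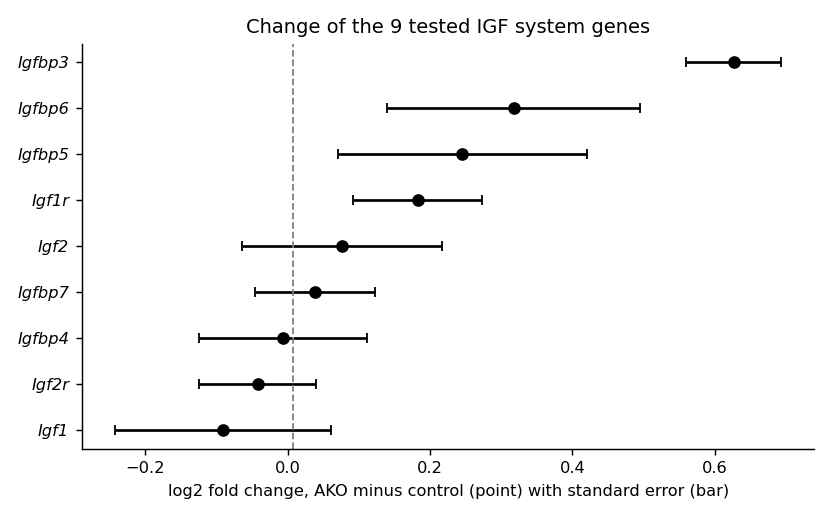
Log2 ratio of AKO over control (log2 fold change) with its standard error from the fit across all genes, for the 9 IGF system genes tested, and the median of all genes as a dashed line at 0.01. Igfbp3 lies at 0.63 and the other 8 between -0.09 and 0.32.

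Summed per kb, the binding proteins outnumbered the ligands in every sample, by 19.9 to 29.8 times, with 24.7 ± 4.95 in control and 27.7 ± 1.86 in AKO (SD, n = 3 each). The sum was 12475 ± 1199 per kb in control and 13542 ± 1641 in AKO, and the groups overlapped. Igfbp3 supplied 1.997%, 1.71% and 1.53% of it in control and 2.31%, 2.76% and 2.36% in AKO. It was thus a minor binding protein transcript in both groups, and its share did not overlap between them. This share includes the genotype difference by which Igfbp3 was singled out. Igfbp7 supplied 37.9% to 42.9% and Igfbp4 22.2% to 27.8% of the sum.

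The cell types that could carry these transcripts were followed with marker lists. In tissue RNA, fewer cells of a type and less RNA per cell cannot be told apart. All 8 adipocyte progenitor markers (Dcn the most abundant) had a positive log2 ratio, with a median of 0.29. limma called 0 of them and DESeq2 called 1, Dpp4 (adjusted p = 0.00844). Their sum ranged from 27999.9 to 36490.0 in control and from 33261 to 43191 in AKO. All 8 macrophage markers (Lyz2 the most abundant) were also positive, with a median of 0.37, 0 called by limma, and sums from 10072 to 14312 in control and from 12492 to 17232 in AKO. The endothelial markers (Cdh5 the most abundant) had a median of -0.06, with sums from 20465 to 22232 in control and from 18753 to 21456 in AKO. The 6 beige adipocyte markers (Ucp1 the most abundant) were all negative, with a median of -1.22 and sums from 24462 to 35821 in control and from 9358 to 12627 in AKO. limma called 1 of them, Elovl3 (adjusted p = 0.0350), and DESeq2 called 5 of the 6 (Ucp1, Cidea, Dio2, Cox7a1 and Elovl3).

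Per 1000 counts of progenitor markers, Igfbp3 had 17.7 to 24.9 in control and 23.6 to 30.4 in AKO, which overlapped. Higher values without overlap were seen for 0.512% of all genes tested. Per 1000 counts of macrophage markers it had 45.2 to 69.3 in control and 61.2 to 81.0 in AKO, which overlapped too. Higher values without overlap on this scale were seen for 0.267% of all genes tested. Igf1 (322 to 492 in control, 256 to 295 in AKO) and Igfbp4 (1033 to 1364 and 888 to 919) were lower without overlap. So were 13.9% of all genes tested. Per 1000 counts of endothelial markers, Igfbp3 had 30.5 to 33.5 in control and 47.5 to 55.9 in AKO, without overlap (10.9% of all genes higher). On this scale Igf1r (22.3 to 26.4 in control, 27.0 to 31.8 in AKO) and Igfbp6 (62.4 to 91.6 and 92.1 to 127) were also higher without overlap, by narrow margins. Per 1000 counts of adipocyte markers, Igfbp3 had 1.80 to 2.01 in control and 2.99 to 3.51 in AKO, again without overlap. Igfbp5 had 459.8 ± 51.8 per 1000 progenitor counts in control and 451 ± 9.38 in AKO, and Igfbp6 had 52.3 ± 6.39 and 54.2 ± 6.81 (SD, n = 3 each). For both, these means differed by less than the spread between samples. Per 1000 progenitor counts, Igf1 (114 to 177 in control, 104 to 113.7 in AKO), Igfbp4 (402 to 491 and 342 to 382) and Igfbp7 (174 to 207 and 149 to 171) did not overlap and were lower in AKO, for Igf1 by a narrow margin, where 17.5% of all genes tested were lower without overlap. Per 1000 adipocyte counts, Igfbp5 (32.5 to 51.1 in control, 52.3 to 55.8 in AKO), Igfbp6 (3.75 to 5.22 and 5.995 to 7.08) and Igfbp7 (16.7 to 17.7 and 18.9 to 19.7) were higher in AKO without overlap, as were 16.5% of all genes tested. In AKO, replicate 2 was the lowest sample for 6 of the 9 members tested (Igf1, Igfbp3, Igfbp4, Igfbp5, Igfbp6 and Igfbp7). It was also the lowest for the adipocyte, progenitor, endothelial, macrophage and lymphatic sums. In control, replicate 1 was the lowest for Igfbp5, Igfbp6 and Igfbp7, and for the adipocyte, progenitor, mural, macrophage, muscle and lymphatic sums. The part of progenitors, macrophages and muscle in the values of the members was not tested. The ratios were chosen after the values were seen.

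**Figure D4:**
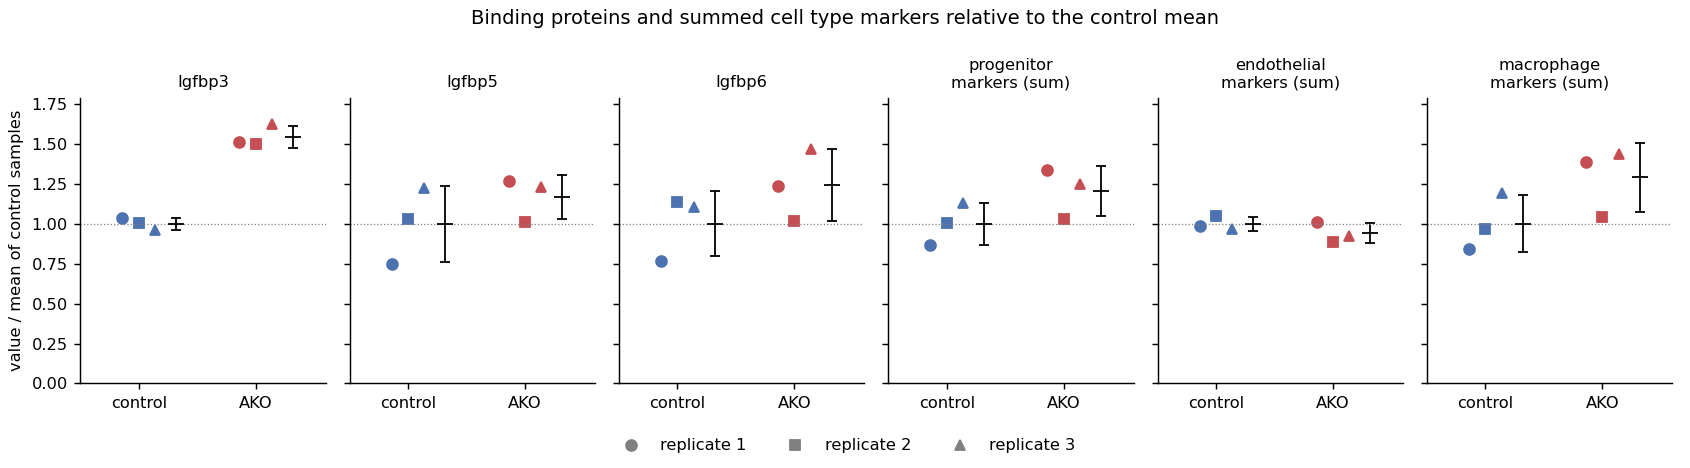
Igfbp3, Igfbp5, Igfbp6 and the summed markers of adipocyte progenitors, endothelium and macrophages, each divided by its mean over the control samples, with control in blue, AKO in red, group mean and SD (n = 3) in black. The 3 AKO samples of Igfbp3 lie above its highest control sample at 1.03, with the top one at 1.62. The AKO samples of the progenitor sum lie at 1.03 to 1.33 and those of the endothelial sum at 0.885 to 1.01.

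The sums of the mural, lymphatic, lymphocyte and mammary lists overlapped between the groups. The mural list (Notch3 the most abundant) had sums from 9722 to 10916 in control and from 9439 to 10386 in AKO. The lymphatic list (Lyve1 the most abundant) had 1227 to 1794 in control and 1771 to 2391 in AKO. The lymphocyte list (Cd4 the most abundant) had 155 to 919 in control and 131 to 1331 in AKO. The mammary epithelial list (Csn3 the most abundant) had 11.8 to 1184 in control and 133 to 1553 in AKO, with Krt8, Krt14, Krt5 and Epcam at 0 in at least 1 sample. In the muscle list Acta1 was the most abundant gene.

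Among the other genes of the IGF system, 47 were listed by role, 44 were found and 42 had a mean of at least 10. limma called 0 of the 42 (0.0144% of all genes) and edgeR 0. DESeq2 called 2 of 44, Cish and Adam12 (0.998% of all genes). Before adjustment, 8 of the 42 had a p under 0.05 with limma, 5 higher and 3 lower in AKO, against 9.10% of all genes. The median log2 ratio was 0.02, against 0.01 over all genes.

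Of the growth hormone axis, which drives Igf1 transcription through STAT5, Cish had the largest difference of all 42 genes. Cish encodes a SOCS-family protein that is induced by STAT5 and dampens the receptors that activate it. It had 753, 441 and 1094 normalized counts in control and 192, 204 and 211 in AKO. The control samples were spread widely, the AKO samples were close together, and the groups did not overlap. The log2 ratio was -1.81 (SE 0.28), and the adjusted p was 0.151 (limma) or 0.00018 (DESeq2). Without control replicate 2, limma called Cish. Of its exonic bases, 11.5% are shared with genes on the opposite strand. Socs2, another STAT5 target of the same family, had 459, 316 and 327 in control and 311, 324 and 419 in AKO, with a log2 ratio of -0.06 (SE 0.17, limma adjusted p = 0.956). Ghr, the growth hormone receptor, had a log2 ratio of 0.02 (SE 0.10), Stat5a -0.09 (0.09) and Stat5b 0.13 (0.06). Igfals, which encodes the acid-labile subunit, had 1351, 1085 and 1279.8 in control and 1199, 786 and 1200.3 in AKO (log2 ratio -0.24, SE 0.17, limma adjusted p = 0.724). Its groups overlapped, and AKO replicate 2 was its lowest sample, as it was for Igf1.

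Of the 12 proteases and protease inhibitors tested, 10 had a positive log2 ratio, with a median of 0.21, limma called 0 and DESeq2 called 1. Pappa2, which cuts IGFBP3 and IGFBP5, was rare, with 12.0, 5.38 and 15.2 normalized counts in control and 24.0, 26.4 and 15.4 in AKO. Its log2 ratio of 1.02 (SE 0.43, limma adjusted p = 0.539) rests on few reads. Mmp3, a matrix metalloproteinase that can degrade IGFBP3, had 323, 469 and 419.8 in control and 543, 544 and 643 in AKO (log2 ratio 0.52, SE 0.14, limma adjusted p = 0.374). Adam12, a metalloproteinase that cuts IGFBP3 and IGFBP5, had 1091, 1182 and 1043 in control and 925, 732 and 853 in AKO. Its log2 ratio was -0.41 (SE 0.10), and the adjusted p was 0.315 (limma) or 0.0474 (DESeq2). Of the 12, 4 did not overlap between groups, and of all genes tested 14.5% did not. Mmp3, Htra1 and, by a narrow margin, Pappa2 were higher in AKO, and Adam12 was lower. Htra1 (0.21, SE 0.08) and Htra3 (0.22, SE 0.09), secreted serine proteases, had small positive log2 ratios. Ctsd, a lysosomal protease with the highest count of the list, which shares 34.4% of its exonic bases with Gm49369, was at -0.04 (SE 0.12).

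The other roles held few differences. Wisp2 (Ccn5), a matricellular gene of preadipocytes whose protein shares the IGFBP domain, had 129, 113 and 135 normalized counts in control and 173, 209.9 and 182 in AKO. Its groups did not overlap, and its log2 ratio was 0.58 (SE 0.12, limma adjusted p = 0.293). Crim1 and Cyr61 (Ccn1), which share the domain too, had log2 ratios of 0.00 (SE 0.08) and -0.12 (SE 0.15). Lrp1, Rxra and Nr4a1, whose products have been described as partners of IGFBP3 at the cell surface or in the nucleus, had 0.03 (SE 0.11), 0.01 (0.07) and 0.16 (0.21) on the log2 scale. Of the signaling genes, Irs1, the adapter of the IGF1 and insulin receptors, had 2159, 1902 and 1829.8 in control and 1798, 1686 and 1502 in AKO, without overlap (log2 ratio -0.24, SE 0.09, limma adjusted p = 0.513). Irs1 shares 30.9% of its exonic bases with Gm9747 on the opposite strand. Pik3r1 (-0.17, SE 0.15) and Akt2 (-0.02, SE 0.06) overlapped between groups. H19, the imprinted neighbor of Igf2, varied by several fold, with 104, 269 and 262 in control and 214, 474 and 647 in AKO (log2 ratio 1.05, SE 0.47, limma adjusted p = 0.560). Its lowest sample, control replicate 1, and its highest, AKO replicate 3, were also the lowest and highest for the muscle marker sum, at 123 and 86525, and the part of muscle in H19 was not tested. Igf2bp2, an RNA-binding protein gene named for Igf2 mRNA, was at -0.12 (SE 0.10).

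**Figure D5:**
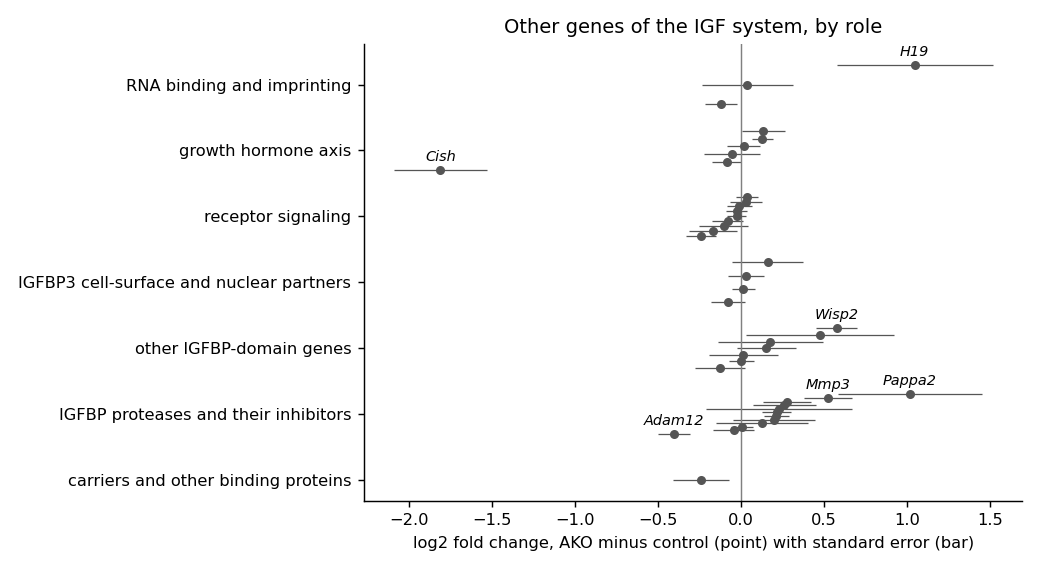
Log2 ratio of AKO over control (log2 fold change) with its standard error for the 42 other IGF system genes tested, grouped by role. Most points lie near 0, and the farthest is Cish at -1.81, followed by H19 at 1.05 and Pappa2 at 1.02.

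The genes whose profile over the 6 samples was most like that of Igfbp3 were Arsg, Igsf6, Eif4a2, Sytl2 and E2f8. Likeness was the root mean square difference between log2 profiles centered on their means, and it ran from 0.083 for Arsg to 0.105 for E2f8. Arsg had 100.4, 95.7 and 84.4 normalized counts in control and 133, 139.6 and 133 in AKO. Eif4a2, a translation initiation factor and the most abundant of the 5, had 2895, 2647 and 2401 in control and 3459.99, 3926 and 3779 in AKO. For the other members of the IGF system the difference from the Igfbp3 profile was larger, from 0.242 for Igf1r to 0.411 for Igf1. The likeness includes the genotype difference by which Igfbp3 was singled out.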

How the data were processed

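The sequenced RNA came from iWAT of 3 control and 3 AKO samples. Per the study's methods, STAR placed the reads on GRCm38.p6, featureCounts assigned them to GENCODE M25 genes and DESeq2 compared the genotypes. The submitters' processing notes also name FastQC and mm10. The deposited values are a signal, namely gene counts that the authors divided by a size factor for each sample, not by gene length. Strand use and the filter on genes are not given in the sources used here. The table also holds the authors' own fold changes and p-values, which were not used.

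limma (3.58.1, R 4.3.3) was fitted to log2(value + 1) with a variance trend over 13855 genes (mean of 10 or more normalized counts), with Benjamini-Hochberg adjustment. This scale understates changes of low genes. Values were whole multiples of a step for each sample (within 0.01 reads), 1.00 to 1.08 in control and 0.960 to 0.976 in AKO, and the reads so recovered were tested with edgeR (4.0.16, TMM) and DESeq2 (1.42.0). Scripts were tested on simulated data. Libraries of the same group were not copies of each other (chi-square per degree of freedom 9.86 to 20.1). p-values measure the spread between these samples.

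Positions and lengths came from GENCODE M21 (GRCm38), in which all 10 members were found, and promoter windows from RefSeq (GRCm38.p6), with RefSeq's own starts. The table uses older symbols (Cyr61, Wisp2), so the annotation behind it may differ.

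The members and lists were chosen with earlier results of these data known. Named were the members, from each list the called genes, the 2 with the highest mean and the 1 with the largest log2 ratio, the top marker of each list and markers at 0 (1 marker list is not reported here), and the 5 genes most like Igfbp3. Adam12, Mmp3, Htra1, Socs2, Stat5b, Dpp4 and beige markers other than Ucp1 were added after their values were seen. Alternatives were pseudocounts of 0.1 and 10, no filter, TMM factors, edgeR, DESeq2, a block for the replicate number, single samples left out, and the longest transcript as length.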

Additional observations from a re-analysis of the deposited data

How the results depend on the processing

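Over all genes limma called 2 (1 lower, 1 higher), and DESeq2 called 149 (113 lower, 36 higher), of which 1 was a member and 2 were other genes of the IGF system. The cause of this difference was not tested. Leaving out single samples, calls over all genes ranged from 0 to 3, those of members stayed at 0, and those of the other IGF genes ranged from 0 to 1 (Cish, without control replicate 2). The count over all genes was 3 without control replicate 2 and 0 without any other single sample. The log2 ratio of Igfbp3 lay between 0.59 and 0.65 under all 13 alternatives. That of Igf1, Igf2, Igf2r, Igfbp4 and Igfbp7 changed sign in at least 1 of them, and Igfbp4 did so under TMM, edgeR and DESeq2 too, at up to 0.02. Level per kb depended on the length used. By the longest transcript, Igf1 was at 623, Igf2 at 72.3, Igf1r at 47.0 and Igfbp3 at 355, because that transcript is shorter than the union of exons. Low reads limit Igfbp2 and Pappa2.

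With the replicate number as a block, limma called 2 genes (0 lower, 2 higher), 0 members and 0 other IGF genes. Deviations of same-numbered samples correlated at 0.135, -0.351 and 0.240, and not every sample correlated best with its own number, so the numbers were not taken to pair the samples.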
